A study of Mus musculus with 24 samples.

Results

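Transcripts of 6 subunits of the NADPH oxidase family, Cybb, Cyba, Ncf1, Ncf4, Rac2 and Nox4, were examined in the livers of 24 mice. The members were given as a list of gene names. All 6 were found among the 21755 genes of the p16-3MR table, and 4 (Ncf1, Ncf4, Rac2 and Nox4) could be used among the 12643 rows of the wild-type table. The wild-type row labels lack 9 lower-case letters, so the labels that would hold Cybb and Cyba match several symbols each, and Cybb and Cyba were not analysed in wild-type livers.

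NADPH oxidases move electrons from NADPH across a membrane to oxygen and so make superoxide or hydrogen peroxide. In phagocytes, CYBB (gp91phox, also NOX2) is the catalytic subunit and CYBA (p22phox) its membrane partner. NCF1 (p47phox) and NCF4 (p40phox) are cytosolic organizers, and the small GTPase RAC2 joins them when the cell is activated. In the liver this oxidase belongs mainly to Kupffer cells and recruited neutrophils and monocytes. NOX4 is a catalytic subunit that also uses CYBA but needs none of the cytosolic organizers, makes mainly hydrogen peroxide, and has been described in hepatocytes, stellate cells and endothelium.

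The p16-3MR mice carry the 3MR reporter with a viral thymidine kinase under the p16 promoter, which makes p16-positive cells sensitive to ganciclovir (GCV). Monthly rounds of GCV (150 mg/kg in the protocol of the labels, while the study's methods give a lower dose) or vehicle (VEH, pH11 water) were injected intraperitoneally on 5 consecutive days, starting at 16 to 18 months of age in p16-3MR mice and at 6 months in wild-type mice, whose livers were taken after 3 months. Each combination of genotype, sex and treatment had 3 livers. By the study's methods, the p16-3MR livers were taken after a longer course of rounds and at an older age than the wild-type livers. The p16-3MR livers were batch 1 and the wild-type livers batch 2. Genotype, starting age, age at collection, length of treatment and batch therefore cannot be told apart, and the tables were not tested against each other. Each library came from total RNA of whole liver, and in such bulk samples fewer cells of a type and less RNA per cell cannot be told apart.

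Depth was 5005760 to 7160172 counts in p16-3MR livers and 3084517 to 5667904 in wild-type livers. The hepatocyte markers were present in every liver. Of the p16-3MR livers, 3 stood apart. GCV-treated female 33 had 64.0% of its counts on mitochondrially encoded genes, against 12.3% to 22.4% in the other 11, and its scaling factor was 0.259. GCV-treated male 32 and VEH-treated male 24 had the highest summed macrophage markers (5804 and 3082 CPM, counts scaled to library size) and the lowest summed hepatocyte markers (37991 and 54667 CPM, against 96869 to 167859 CPM in the others). Males 32 and 24 also had the highest scaling factors, 1.80 and 1.64. Levels are CPM divided by TMM-scaled library sizes. They compare livers for 1 gene and were not compared between genes.

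The genes lie on 5 chromosomes (GRCm38). Cybb is at chrX:9435252-9487771 on the minus strand, Cyba at chr8:122424776-122432930 (minus), Ncf1 at chr5:134220053-134229625 (minus), Ncf4 at chr15:78244801-78262580 (plus), Rac2 at chr15:78559167-78572783 (minus) and Nox4 at chr7:87246096-87398710 (plus). Cyba overlaps Gm20388 and Ncf1 overlaps Gtf2ird2, each on the opposite strand. Gm20388 had 0 to 199 counts per p16-3MR liver and Gtf2ird2 4 to 32, and whether strand was used in counting is not given in the sources used here, so the counts of Cyba and Ncf1 are uncertain to that extent.

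The RefSeq promoter table (GRCm38.p6, 250 bases before to 50 after the start) held 4 of the 6 members. The windows of Cybb and Nox4 are shown because these catalytic subunits had different patterns over the livers. Capitals mark TTCCTC, the reverse complement of GAGGAA, the core letters bound by the myeloid factor PU.1. The Cybb window is chrX:9469275-9469574 (minus) and the Nox4 window chr7:87246399-87246698 (plus). Both use a RefSeq start that lies inside the gene span above and not at its end.
Cybb: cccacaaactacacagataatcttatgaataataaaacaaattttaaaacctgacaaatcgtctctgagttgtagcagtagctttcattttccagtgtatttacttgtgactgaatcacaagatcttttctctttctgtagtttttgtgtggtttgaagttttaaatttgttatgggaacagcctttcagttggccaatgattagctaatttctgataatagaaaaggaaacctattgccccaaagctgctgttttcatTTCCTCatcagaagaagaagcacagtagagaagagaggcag
Nox4: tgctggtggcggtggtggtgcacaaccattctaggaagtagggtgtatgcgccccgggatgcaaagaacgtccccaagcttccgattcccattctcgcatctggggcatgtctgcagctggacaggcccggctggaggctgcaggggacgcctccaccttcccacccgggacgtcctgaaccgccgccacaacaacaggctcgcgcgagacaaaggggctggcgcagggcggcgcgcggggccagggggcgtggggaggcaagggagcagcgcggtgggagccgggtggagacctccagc
On both strands, GAGGAA was found once in the window of Cybb and not in those of Cyba, Ncf1 and Nox4. Of all 32851 windows of this length, 28.3% held it. A match describes letters and is not a binding site.

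In p16-3MR livers, the 5 phagocyte subunits varied widely between livers of the same group. Cybb ranged from 10.2 CPM in GCV-treated female 35 to 589.8 CPM in GCV-treated male 32, a 57.7-fold range. Cybb was 26.9, 88.3 and 149.5 CPM in VEH-treated females 27, 28 and 29. It was 26.4, 23.2 and 10.2 CPM in GCV-treated females 31, 33 and 35. Female groups did not overlap, although females 27 and 31 were nearly equal. Cybb was 264.8, 31.1 and 11.4 CPM in VEH-treated males 24, 25 and 26 and 179.2, 589.8 and 18.1 CPM in GCV-treated males 30, 32 and 34. Male groups overlapped over most of their range.

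Cyba, the partner that stabilizes CYBB in the membrane, was 2.95, 7.09 and 19.1 CPM in VEH-treated females 27, 28 and 29 and 4.24, 6.18 and 3.86 CPM in GCV-treated females 31, 33 and 35. In males it was 33.7, 5.36 and 2.97 CPM after VEH (24, 25 and 26) and 18.7, 47.7 and 5.19 CPM after GCV (30, 32 and 34). The 6.18 CPM of liver 33 came from 8 counts. The groups overlapped in both sexes, and male 32 was again the highest.

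Ncf1, the organizer that is phosphorylated on activation, was 5.09, 20.0 and 20.9 CPM in VEH-treated females 27, 28 and 29 and 6.94, 6.18 and 1.51 CPM in GCV-treated females 31, 33 and 35. In males it was 39.0, 8.75 and 3.75 CPM after VEH and 15.5, 54.9 and 4.80 CPM after GCV. Female 27 lay below GCV-treated females 31 and 33, so the groups overlapped. The 6.18 CPM of liver 33 came from 8 counts.

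Ncf4, which binds a membrane phosphoinositide on phagosomes, was 3.08, 6.08 and 11.8 CPM in VEH-treated females 27, 28 and 29 and 3.28, 22.4 and 1.34 CPM in GCV-treated females 31, 33 and 35. The 22.4 CPM of liver 33 came from 29 counts. In males Ncf4 was 25.1, 3.39 and 0.313 CPM after VEH, the last from 2 counts, and 11.3, 41.9 and 1.34 CPM after GCV.

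Rac2, the GTPase of blood cells, was 7.24, 27.8 and 60.2 CPM in VEH-treated females 27, 28 and 29 and 11.2, 17.8 and 8.55 CPM in GCV-treated females 31, 33 and 35. In males it was 85.3, 11.96 and 3.28 CPM after VEH and 38.6, 160.6 and 15.4 CPM after GCV. Livers 32 and 24 had the highest and second highest level of all 5 phagocyte subunits.

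**Figure D1:**
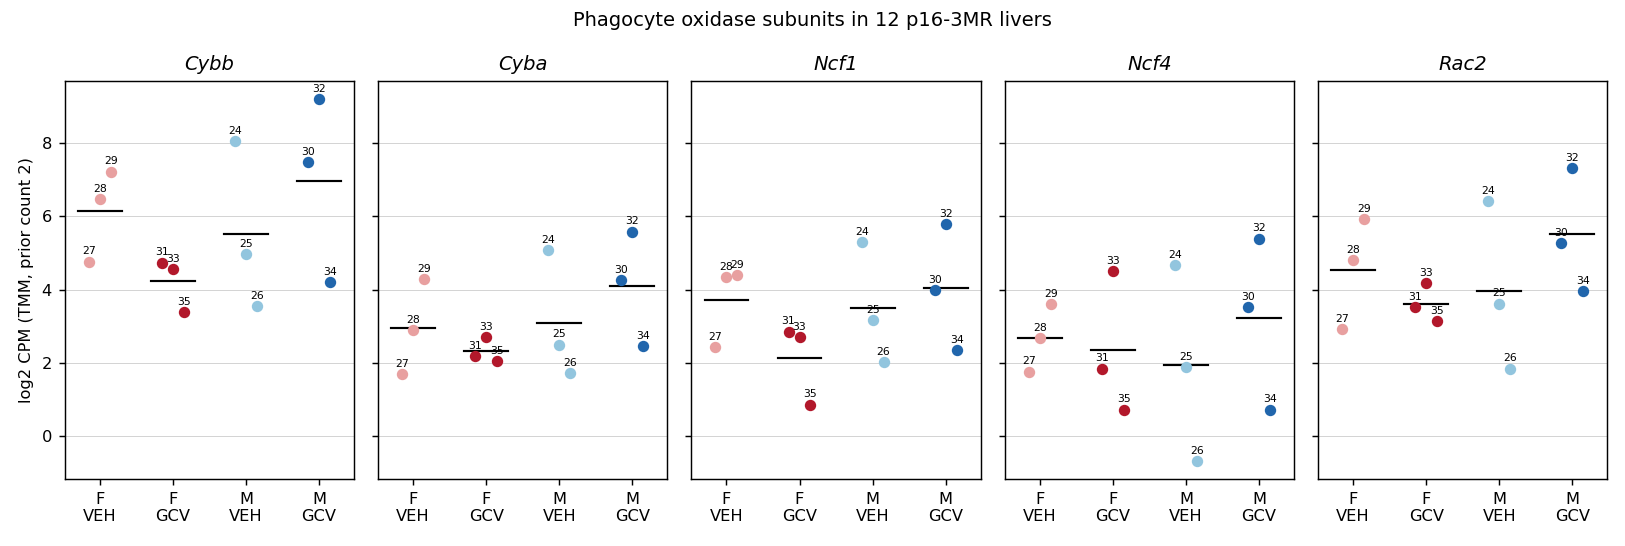
Level of each phagocyte subunit in 12 p16-3MR livers (vertical axis, log2 CPM with a prior count of 2) by sex and treatment; points are livers with their numbers and lines are group means (n = 3). Male livers 32 and 24 are at the top of every panel, and the female Cybb groups do not overlap.

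The effect of GCV was tested within each sex. No member passed in females or males, nor did any of the 21755 genes (percent called 0 in both, edgeR's quasi-likelihood test, Benjamini-Hochberg adjusted p under 0.05). At an unadjusted p under 0.05, 7.37% of genes differed in females and 1.91% in males, and 0 of the 6 members did in either sex. DESeq2 called 86 genes in females and 5 in males, and limma-voom 7 and 145, with 0 members in each.

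In females, the log2 fold change of Cybb was -2.15 (SE 1.16, adjusted p = 0.678, edgeR). The approximate 95% interval of Cybb, from the SE and a normal distribution, was -4.44 to 0.13. Such an interval is somewhat narrow for so few livers. Its female groups did not overlap with GCV lower, as was true of 7.35% of all genes. The estimates were -1.09 for Cyba, -1.70 for Ncf1, 0.17 for Ncf4, -1.38 for Rac2 and -1.17 for Nox4, with SE of 0.94 to 1.33. The median of the 6 was -1.28, and that of all genes 0. Leaving out 1 liver moved several of them. Without VEH-treated female 29 the estimates were -0.17 for Cyba and -0.57 for Rac2. That of Nox4 was -0.42 without GCV-treated female 31 and -2.32 without GCV-treated female 33. That of Ncf4 was -1.67 without female 33 and -0.17 without VEH-treated female 27, both on the other side of 0, and 0.62 to 0.77 without female 31, 29 or 35.

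In males, the estimates were 1.36 for Cybb (SE 1.12), 0.76 for Cyba, 0.55 for Ncf1, 0.91 for Ncf4, 1.09 for Rac2 and -0.83 for Nox4, each with an adjusted p of 1 in edgeR. Without GCV-treated male 32, those of the 5 phagocyte subunits were below 0 (Cybb -0.12, Cyba -0.30, Ncf1 -0.82, Ncf4 -0.67, Rac2 -0.39). Without VEH-treated male 24 they were 3.68, 2.57, 2.06, 3.37 and 3.28 in the same order. A single male liver thus set their direction or moved their size by over 1.5 times. The estimate of Nox4 was -0.45 without male 32 and -1.16 without male 24.

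Whether females and males responded differently was tested as the female change minus the male change. For Cybb this was -3.51 (SE 1.61, unadjusted p = 0.0476, adjusted p = 0.976, edgeR), and it was -2.11 without male 32 and -5.91 without male 24. The estimates were -1.85 for Cyba, -2.25 for Ncf1, -0.74 for Ncf4, -2.47 for Rac2 and -0.34 for Nox4. Without male 32 they were -0.86 for Cyba, -0.96 for Ncf1, 0.73 for Ncf4 and -1.08 for Rac2, and without male 24 they were -3.73, -3.83, -3.31 and -4.75 in the same order. Without VEH-treated female 29 those of Cyba and Rac2 were -0.89 and -1.62, and that of Nox4 ran from -1.49 without female 33 to 0.42 without female 31. No gene passed the adjusted threshold (percent called 0), and 3.78% of genes had an unadjusted p under 0.05.

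**Figure D2:**
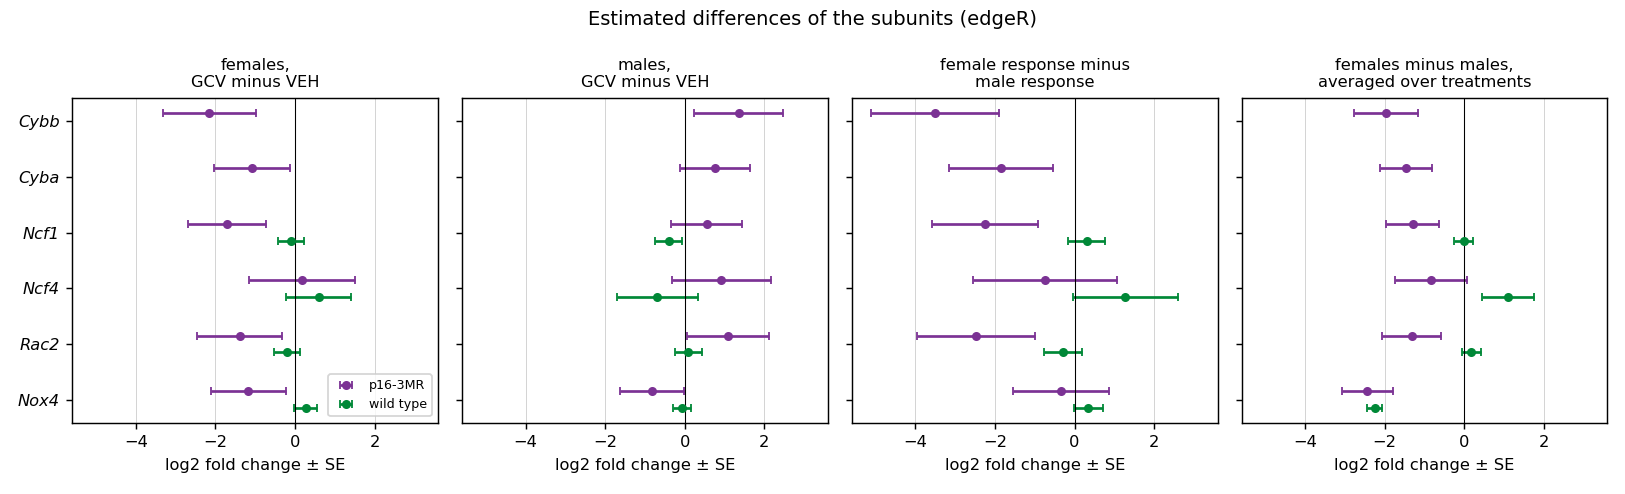
Estimated log2 fold change of each subunit (horizontal axis, points with bars of 1 SE from edgeR) for 4 comparisons, in p16-3MR livers (purple) and wild-type livers (green, 4 subunits). Nox4 in females minus males lies near -2.4 and -2.3 in the 2 tables, and the p16-3MR bars are wider.

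**Figure D3:**
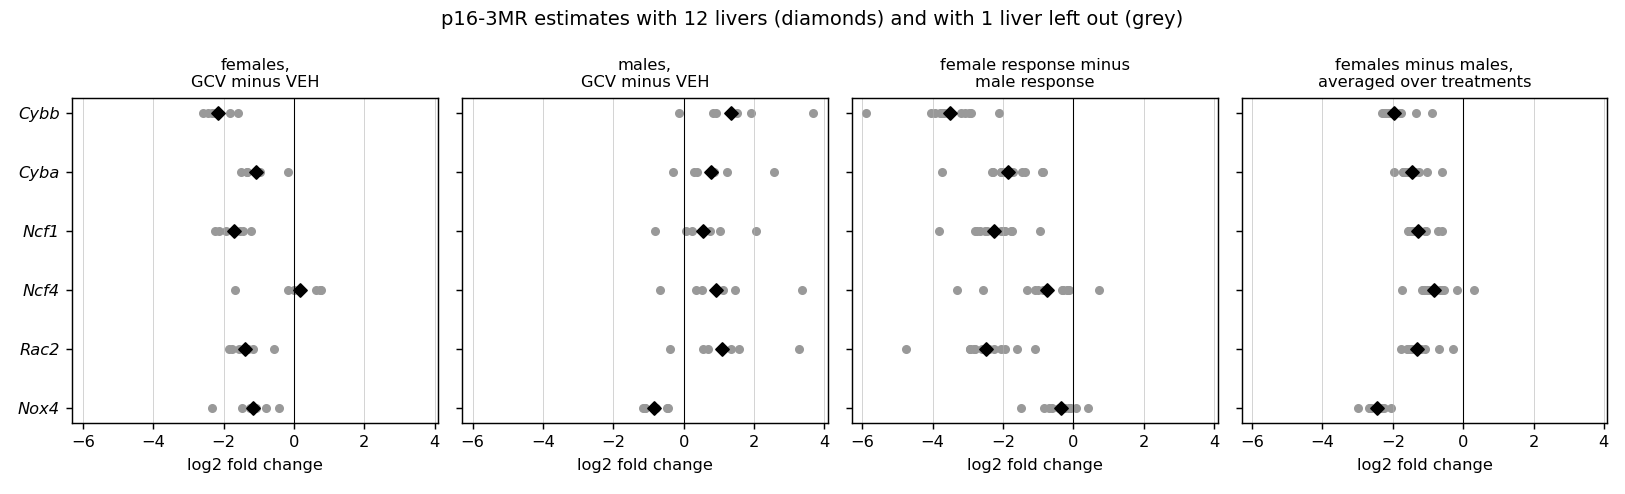
Estimated log2 fold change (horizontal axis) of each subunit in p16-3MR livers with all 12 livers (diamonds) and with 1 liver left out (grey points). Estimates of the phagocyte subunits in males lie on both sides of 0, and those of Nox4 for females minus males lie between -2.98 and -2.06.

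The phagocyte subunits varied together. Over the 12 p16-3MR livers, Pearson's r of log2 CPM was 0.808 to 0.966 for the 10 pairs of phagocyte subunits, and 0.769 to 0.937 over the 9 livers left without 24, 32 and 33. Nox4 had r of -0.069 to 0.150 with them. These values are descriptions over livers that share libraries and scaling, with no test.

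The 12 Kupffer cell and macrophage markers summed to 480 to 1371 CPM in VEH-treated females, 176 to 535 CPM in GCV-treated females, 247 to 3082 CPM in VEH-treated males and 333 to 5804 CPM in GCV-treated males, and none was at 0 in any liver. Cybb followed this sum with r of 0.991, and 0.982 without livers 24, 32 and 33. The 5 phagocyte subunits had r of 0.811 (Ncf4) to 0.991 with it, of 0.892 to 0.930 with the summed monocyte and neutrophil markers and of 0.743 to 0.900 with the summed T, NK and B cell markers. With the summed sinusoidal endothelial markers r was 0.637 to 0.791 and with the summed stellate cell and fibroblast markers 0.491 to 0.733, and without livers 24, 32 and 33 these were 0.067 to 0.512 and 0.072 to 0.343. Ncf4 had r of 0.896 with the monocyte and neutrophil sum over all 12 livers. Without livers 24, 32 and 33 it had 0.852 with that sum and 0.912 with the macrophage sum. In females after GCV, 12 of 12 markers had estimates below 0, against 49.8% of all genes, and none passed the adjusted threshold. The lowest p were those of Cd163, a scavenger receptor (-3.40, SE 1.16, unadjusted p = 0.0113), and Adgre1, which encodes F4/80 (-2.22, SE 0.98, unadjusted p = 0.0411), in edgeR. In the same comparison 11 of 12 monocyte and neutrophil markers, 9 of 10 T, NK and B cell markers, 7 of 8 sinusoidal endothelial markers and 6 of 10 stellate cell and fibroblast markers had estimates below 0. Without VEH-treated female 28, 3 of the 12 monocyte and neutrophil markers did. None of these passed the adjusted threshold. An unadjusted p under 0.05, found for 7.37% of all genes, was found for 4 lymphocyte markers (1 without VEH-treated female 29 and 2 without GCV-treated female 35) and for 3 endothelial markers, Oit3, Kdr and Cdh5 (1 without female 27 or 28). The lowest was that of Cd79a, a part of the B cell receptor (-2.86, SE 0.83, unadjusted p = 0.00417, edgeR). The part of cell composition in the subunit values was not tested.

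The genes most like each member over the 12 livers, among 12374 genes with a mean of at least 10 counts, were for Cybb Csf1r (r = 0.989), Cyth4 and Sirpa. They were Arhgap15, Clec4a2 and Clec4a1 for Cyba, Pla2g4a, Csf1r and Cd300e for Ncf1, Cfp, Fermt3 and Trpm2 for Ncf4, and Fpr1, Ifi30 and Cmtm3 for Rac2. For Nox4 they were Adck5 (r = 0.977), Mug1 and Cyp2c54.

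**Figure D4:**
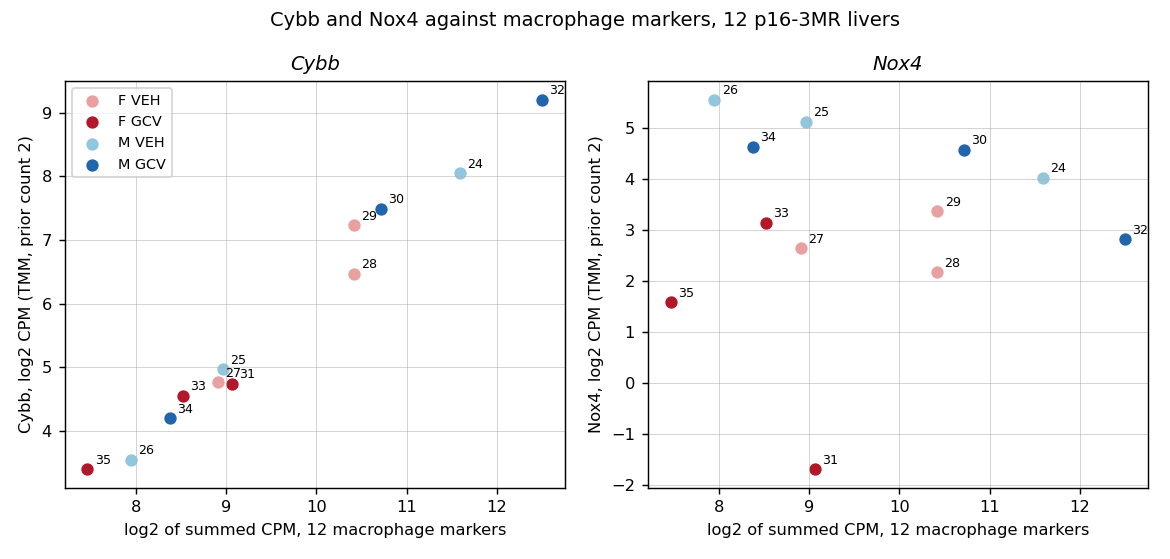
Cybb (left) and Nox4 (right) in log2 CPM (vertical axes) against the log2 of the summed CPM of 12 macrophage markers (horizontal axes) in 12 p16-3MR livers, coloured by group. Cybb follows the marker sum (r = 0.991), and Nox4 separates by sex with male 32 among the females.

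Nox4 differed between the sexes. In wild-type livers it was 7.39, 7.08 and 3.06 CPM in VEH-treated females 4, 5 and 6 and 9.04, 7.19 and 5.47 CPM in GCV-treated females 4, 5 and 6. It was 25.02, 36.1 and 35.02 CPM in VEH-treated males 1, 2 and 3 and 30.8, 33.4 and 26.9 CPM in GCV-treated males 1, 2 and 3. Every male lay above every female, as was true in that direction of 2.46% of all genes.

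The mean was 6.54 ± 2.05 CPM in wild-type females and 31.2 ± 4.48 CPM in wild-type males (SD, n = 6 each). Averaged over treatments, Nox4 was 4.78-fold lower in females (log2 fold change -2.26, SE 0.18, adjusted p = 8.46e-09, edgeR). Of all genes, 7.94% passed in this comparison. The 7 stellate cell and fibroblast markers usable there summed to 287 to 350.4 CPM in females and 230.2 to 277 CPM in males, and the 5 sinusoidal endothelial markers to 83.06 to 110.6 CPM and 71.0 to 83.01 CPM, so both sums lay higher in females while Nox4 was lower. The 4 hepatocyte markers usable there summed to 24804 to 26193 CPM in females and 24382 to 27099 CPM in males, and these overlapped. The part of these cell types in the result of Nox4 was not tested. Nox4 passed in each of the 12 fits that left out 1 liver, with estimates of -2.37 to -2.11, and within VEH-treated livers (-2.43) and GCV-treated livers (-2.08) alone.

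In p16-3MR livers, Nox4 was 5.90, 4.196 and 9.94 CPM in VEH-treated females 27, 28 and 29 and 15.9, 34.5 and 46.6 CPM in VEH-treated males 24, 25 and 26. These groups did not overlap, as was true with females lower of 5.13% of genes. After GCV it was 0, 8.496 and 2.68 CPM in females 31, 33 and 35 and 23.4, 6.73 and 24.4 CPM in males 30, 32 and 34. The 0 counts of liver 31 allow a level of up to 0.578 CPM (3 counts), and the 8.496 CPM of liver 33 came from 11 counts. Male 32, the liver with the lowest hepatocyte markers, lay within the female range. The summed hepatocyte markers were 105972 to 167859 CPM in females and 37991 to 109657 CPM in males. Over the 12 livers, r of Nox4 with this sum was -0.287, and -0.812 without livers 24, 32 and 33. The part of hepatocyte content in the Nox4 values was not tested.

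Averaged over treatments, Nox4 was 5.41-fold lower in p16-3MR females (log2 fold change -2.44, SE 0.63, unadjusted p = 0.00185), which did not pass after adjustment (adjusted p = 0.285, edgeR), where 0.303% of genes did. It passed in 0 of the 12 edgeR fits that left out 1 liver (adjusted p of 0.101 to 0.686). It passed with DESeq2 (-2.33, adjusted p = 0.039), with limma-voom and sample quality weights (-3.94, adjusted p = 0.0112), and in edgeR without livers 24, 32 and 33 (-3.34, adjusted p = 0.000739), a setting chosen after seeing the data that drops the 1 male within the female range. The GCV comparison of Nox4 did not pass in either sex of either table.

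**Figure D5:**
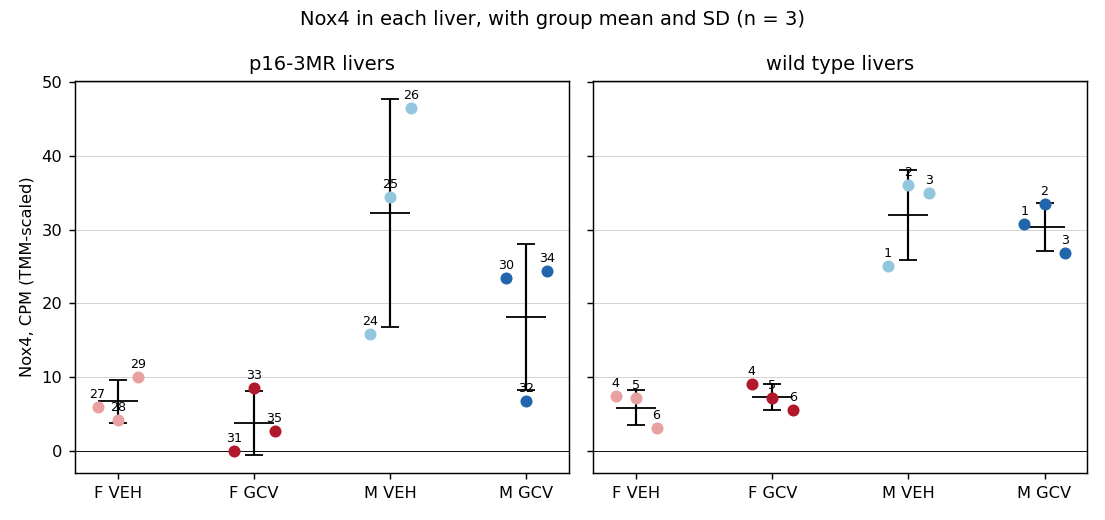
Nox4 in each liver (vertical axis, TMM-scaled CPM) of the p16-3MR table (left) and the wild-type table (right) by sex and treatment, with the mean and SD of each group (n = 3). Every wild-type male lies above every wild-type female, and p16-3MR male 32 lies at 6.73 CPM.

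For the phagocyte subunits, the sex estimates in p16-3MR livers were -1.97 for Cybb (SE 0.81, unadjusted p = 0.0296), -1.46 for Cyba (SE 0.66, unadjusted p = 0.0439), -1.30 for Ncf1, -0.84 for Ncf4 and -1.32 for Rac2, and none passed in edgeR (adjusted p of 0.685 to 0.881). An unadjusted p under 0.05 was found for 7.05% of all genes. Without male 24 those of Cybb, Cyba, Ncf1, Ncf4 and Rac2 were -0.87, -0.61, -0.60, 0.31 and -0.28. Of the macrophage markers, 9 of 12 were lower in females at an unadjusted p under 0.05 and none after adjustment. At that p the count was 1 without male 32, 0 without male 24, 4 without female 27 or 35, 5 without female 33 and 6 to 9 without any 1 of the other 7 livers, and without livers 24, 32 and 33 together it was 0 and the median estimate of the 12 was -0.065.

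Of the phagocyte subunits, 3 could be measured in wild-type livers. Ncf1 lay between 3.05 and 6.29 CPM and Rac2 between 4.09 and 9.73 CPM in all 12 livers, ranges of 2.06-fold and 2.38-fold. Ncf4 had 0 to 13 counts per liver, too few to rank groups. Their r with each other was -0.005 to 0.298. Ncf1 had 10 to 31 counts per liver and Rac2 13 to 44. Counting error at such levels can hide shared variation, so these r do not show whether the subunits vary together. The 9 macrophage markers usable in wild-type livers summed to 232 to 441 CPM.

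After GCV, none of the 4 usable subunits passed in wild-type females (percent called 0.00791) or males (percent called 0). At an unadjusted p under 0.05 none of the 4 differed, against 4.56% of all genes in females and 5.06% in males. In females the estimates were -0.10 for Ncf1 (SE 0.33), 0.59 for Ncf4 (SE 0.82), -0.20 for Rac2 (SE 0.33) and 0.27 for Nox4 (SE 0.29). In males they were -0.40, -0.69, 0.09 and -0.08. With 1 male left out, that of Ncf1 ran from -0.74 (without GCV-treated male 1) to -0.23 (without GCV-treated male 3) and that of Ncf4 from -1.11 (without VEH-treated male 3) to -0.029 (without VEH-treated male 1). The approximate 95% interval of Rac2 in females was -0.84 to 0.45, from the SE and a normal distribution. Such an interval is somewhat narrow for so few livers, so it is only a rough guide to the change that could be missed. The interval of Ncf4, made in the same way, was wider, -1.01 to 2.20 in females and -2.70 to 1.32 in males. Between the sexes, the log2 estimates were -0.01 for Ncf1 and 0.17 for Rac2, with adjusted p of 0.9999 and 0.766 in edgeR, and Ncf4 did not pass.

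Other genes of the pathway were counted from fixed lists. Of 11 other oxidase subunits and regulators measured in p16-3MR livers, 0 passed in any of the 4 comparisons. In females after GCV, the lowest p was that of Sh3pxd2a, which encodes the organizer TKS5 (-0.91, SE 0.38, unadjusted p = 0.0297, edgeR). Duox2, a dual oxidase, had 0 counts in every VEH-treated liver, 0, 0 and 10 counts in GCV-treated females 31, 33 and 35 and 1, 3 and 15 counts in GCV-treated males 30, 32 and 34, so no fold is given. Of 18 genes of oxidase activation signalling, 17 had estimates below 0 in females after GCV (median -1.04, against 49.8% of all genes and a median of 0) and 18 above 0 in males (median 0.98, against 11490 of 21755 genes and a median of 0.04), and 0 passed. Male 32 had a summed level of 1613 CPM over these 18 genes, against 111 to 750.2 CPM in the other 5 males, and without it 2 of 18 were above 0 (median -0.29). Without any 1 of the other males 17 or 18 were (median 0.59 to 2.78). Hvcn1, the proton channel that balances the charge of the oxidase, was at -2.04 (SE 0.87, unadjusted p = 0.0346) and Arhgdib, an inhibitor that holds Rac proteins in the cytosol, at -2.21 (SE 0.97, unadjusted p = 0.0398) in females.

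Of 11 enzymes that remove superoxide or peroxide, 0 passed in p16-3MR livers. In wild-type livers 2 of 6 usable were lower in females, the peroxiredoxins Prdx5 (-0.43, SE 0.07, adjusted p = 0.000411) and Prdx2 (-0.31, SE 0.08, adjusted p = 0.0214, edgeR), where 7.94% of all genes passed.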

How the data were processed

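Smart-3SEQ reads, which come from the 3′ ends of transcripts, were trimmed with Trim Galore 0.6.10 and quantified with Salmon 1.10.3 (build mm10 in the submitters' processing notes). Estimates were summed to genes with tximport. The authors dropped genes under 3 reads and deposited expected counts, that is estimated counts, per gene as whole numbers, not scaled for library size. All 24 livers were used. Replicates are 3 livers per group. In the main fit, p-values rest on the spread between livers within groups, estimated jointly over all groups of the same table. Those for females therefore also carry the spread of the male livers.

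Counts were analysed here with edgeR 4.0.16 in R 4.3.3. Each table was TMM-normalized and fitted with 1 mean per group over 12 livers, and the quasi-likelihood test was adjusted by Benjamini-Hochberg over all genes of the table (threshold 0.05). CPM use TMM-scaled library sizes and log2 CPM a prior count of 2. Depth limits a liver to a floor of 3 counts, 0.293 to 2.32 CPM in p16-3MR livers, which covers counting error only. Alternatives were DESeq2 1.42.0, DESeq2 size factors, limma 3.58.1 voom, filterByExpr, a threshold of 0.1, fits within 1 sex, a replicate block and each liver left out. Fits within 1 treatment and without livers 24, 32 and 33, and list counts with each liver left out, were added after seeing the data. On simulated counts, estimates and signs were recovered. With dispersions on the fitted trend the share of false calls was near nominal. With dispersions that vary by gene it was above nominal, and filterByExpr lowered it, so calls near the threshold are less certain than their adjusted p. The members and lists were chosen with earlier results of these data known. All 6 members are named, up to 4 list genes by lowest p, and the 3 genes most correlated with each member.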

Additional observations from a re-analysis of the deposited data

Results flagged for a closer look

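The response of Cybb to GCV in p16-3MR livers differed between females and males at an unadjusted p of 0.0476 (edgeR's quasi-likelihood test of the interaction, adjusted p = 0.976), with a log2 difference of -3.51 (SE 1.61), and 3.78% of all genes had an unadjusted p under 0.05. The difference was -2.11 without GCV-treated male 32 and -5.91 without VEH-treated male 24. In females all 3 GCV-treated livers lay below all 3 VEH-treated livers, as for 7.35% of all genes, with livers 31 and 27 nearly equal (26.4 and 26.9 CPM), and in males the groups overlapped. It failed the correction over all genes.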

How the results depend on the processing

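Most member results kept their direction and, where an adjusted p was given, their side of the threshold. These were 232 of 240 values in settings other than leaving out a liver, and 335 of 360 with 1 liver left out. No member passed in a GCV comparison, or in the difference between the sexes in response, under any setting run that gave an adjusted p. DESeq2 gave none for the 4 usable members in wild-type females. The cause of the changes below was not tested.

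In p16-3MR livers, for females, males, the difference in response and the sex comparison, edgeR called 0, 0, 0 and 66 genes. DESeq2 called 86, 5, 3 and 200, limma-voom 7, 145, 1 and 215, and edgeR without livers 33, 32 and 24 together 4, 5, 2 and 178, and each of these called 1 member, Nox4, in the sex comparison (log2 fold change -2.33, -3.94 and -3.34) where edgeR called 0. With the 6 female livers alone, 3 genes were called in females, and 26 and 21 in the sex comparison within VEH or GCV alone.

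In wild-type livers edgeR called 1 gene in females, 0 in males, 1 for the difference in response and 1004 between the sexes. DESeq2 called 17 in females and 1 in males, limma-voom 3 in females, a threshold of 0.1 gave 2, the 6 female livers alone 44, and filterByExpr 0 in females and 0 for the difference. Within VEH or GCV alone, 483 and 410 genes differed between the sexes. Same-numbered livers had r of -0.057 to 0.002 in females and -0.066 to 0.283 in males (mean 0.138). Livers with different numbers had r of -0.045 to 0.085 in females and -0.349 to 0.170 in males (mean -0.070). In males these values do not settle whether the numbers are pairs. The main fit did not take them as pairs. A replicate block called 106 genes in females, 68 in males and 79 for the difference, and 0 members in these.

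Signs changed for Ncf4 in p16-3MR females (-1.20 with limma-voom, -1.66 without the 3 livers), for Ncf4 (0.22) and Rac2 (0.30) in the p16-3MR sex comparison without the 3 livers, and for Ncf1 between wild-type sexes within GCV (0.14).

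With 1 liver left out, counts of genes called ran from 0 to 1 in p16-3MR males, 0 to 17 in the wild-type difference in response, 0 to 12 in wild-type females and 0 to 46 in wild-type males. Log2 fold changes that took both signs ran from -0.30 to 2.57 for Cyba, -0.12 to 3.68 for Cybb, -0.82 to 2.06 for Ncf1, -0.67 to 3.37 for Ncf4 and -0.39 to 3.28 for Rac2 in p16-3MR males. They ran from -0.10 to 0.16 for Ncf1 in the wild-type sex comparison. They ran from -0.20 to 0.063 for Ncf1, -0.045 to 1.09 for Ncf4, -0.016 to 0.49 for Nox4 and -0.45 to 0.14 for Rac2 in wild-type females. They ran from -3.31 to 0.73 for Ncf4 and -1.49 to 0.42 for Nox4 in the p16-3MR difference in response. They ran from -1.74 to 0.31 for Ncf4 in the p16-3MR sex comparison. They ran from -1.67 to 0.77 for Ncf4 in p16-3MR females. They ran from -0.22 to 0.013 for Nox4 and -0.10 to 0.27 for Rac2 in wild-type males. They ran from -0.54 to 0.049 for Rac2 in the wild-type difference in response. In p16-3MR males the sign of the 5 phagocyte subunits turned without liver 32, and in p16-3MR females that of Ncf4 turned without liver 33 or 27.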
